A study of Caenorhabditis elegans with 2 samples.

Results

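The genes that encode the proteins of the cytosolic ribosome were examined for regions enriched by immunoprecipitation of the transcription factor DAF-12, tagged with eGFP, from chromatin of Caenorhabditis elegans larvae (ChIP-seq). The members are the genes named rpl- or rps- followed by a digit, together with rla-0, rla-1, rla-2 and ubl-1, which gave 82 of the 19973 protein-coding genes of the WBcel235 annotation. Of these, 47 are named for the large subunit, 32 for the small subunit (ubl-1 counted here) and 3 for the stalk of the large subunit. Whole worms of both sexes were taken at the third larval stage, L3, from strain OP222, which carries the integrated transgene wgIs222 with tagged daf-12 on an unc-119(ed3) background. The labels name no promoter or tissue for the transgene. The series holds 1 group, with 2 samples called biological replicates, and no untreated or untagged sample was analysed here. No comparison of conditions is therefore possible, and the only measure of error is the difference between these 2 replicates, with no test.

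DAF-12 is a nuclear hormone receptor whose ligands are steroids called dafachronic acids, and it controls entry into the dauer stage and the timing of larval development. Ribosomal proteins join ribosomal RNA to form the small subunit, which decodes the message, and the large subunit, which forms the peptide bond. Their genes are among the most strongly transcribed in growing animals, and many promoters in the worm genome lie between closely spaced, divergently transcribed genes. Expression of these genes in the larvae sampled was not measured here.

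The authors deposited a list of 30000 regions for the pooled replicates, 1 such list for each replicate, and a shorter list of 150 peaks that passed a threshold on the irreproducible discovery rate (IDR), which scores how well ranks repeat between replicates. Those 150 peaks were ranks 1 to 150 of the pooled list by the authors' signal value, so rank 150 marks the IDR limit throughout. Signal ran from 9.10 to 178 in the pooled list, with a median of 12, from 4.79 to 78.9 in replicate 1 and from 5.80 to 102 in replicate 2. The scale of the signal is not stated, and pooled and replicate values are not on the same scale. The lists hold no read counts. The depth of the libraries is therefore unknown and no counting interval is given. For each gene the region of highest signal with its summit within 1 kb of an annotated transcript start was taken. The members were chosen by a rule on names that uses no signal value.

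Of the 82 ribosomal protein genes, 7 had an IDR peak within 1 kb of a start: rpl-3, rpl-35, rpl-20, rpl-15, rps-12, rps-1 and rpl-12. They lay on chromosomes III and IV. This was 8.54% of the members, against 105 genes, or 0.526%, of all protein-coding genes. Summits lay upstream of all 7 starts, and upstream at 97 of those 105 genes (92.4%). Down to rank 1000 the members with a region numbered 17, or 20.7%, against 581 genes, or 2.91%, of all protein-coding genes.

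The sequence at each of these 7 summits is shown because the strongest summits share short words that are compared further down. Each is the stretch within 50 bases of the pooled summit, 101 bases long except for rpl-12, where it ends before the annotated start and holds 72 bases. All are written 5′ to 3′ on the strand of the ribosomal protein gene, from the RefSeq WBcel235 sequence that ce11 names, and capitals mark AGTG or its complement CACT. The AGTG core begins 3 of the 4 hexamers searched for as possible nuclear receptor sites. The windows are chrIII:3867518-3867618 on the plus strand for rpl-3, chrIII:7854669-7854769 on the plus strand for rpl-35, chrIV:4750054-4750154 on the minus strand for rpl-20, chrIV:654878-654978 on the minus strand for rpl-15, chrIII:5679095-5679195 on the plus strand for rps-12, chrIII:4475632-4475732 on the plus strand for rps-1 and chrIV:13240652-13240723 on the minus strand for rpl-12.
rpl-3: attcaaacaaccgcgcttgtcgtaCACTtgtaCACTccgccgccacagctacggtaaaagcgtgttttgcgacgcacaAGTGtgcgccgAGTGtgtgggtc
rpl-35: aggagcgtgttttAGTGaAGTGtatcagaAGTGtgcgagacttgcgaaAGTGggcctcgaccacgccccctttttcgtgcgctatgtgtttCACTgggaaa
rpl-20: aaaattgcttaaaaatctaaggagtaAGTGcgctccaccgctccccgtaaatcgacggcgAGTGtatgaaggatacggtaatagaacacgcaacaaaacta
rpl-15: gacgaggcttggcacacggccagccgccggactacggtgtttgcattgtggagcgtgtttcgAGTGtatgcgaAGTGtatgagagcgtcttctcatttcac
rps-12: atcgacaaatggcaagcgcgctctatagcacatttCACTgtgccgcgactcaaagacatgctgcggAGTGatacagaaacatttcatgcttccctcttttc
rps-1: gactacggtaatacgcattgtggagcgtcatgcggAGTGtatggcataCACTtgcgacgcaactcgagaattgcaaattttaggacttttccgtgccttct
rpl-12: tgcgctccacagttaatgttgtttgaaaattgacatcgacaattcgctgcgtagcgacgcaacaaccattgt

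For contrast, 4 genes with no region within 1 kb in any of the 3 lists of 30000 are shown by a window of the same length centred 277 bases upstream of the start, with the same capitals. These are rpl-18 at chrIV:13777538-13777638 on the plus strand, rpl-37 at chrIII:3528315-3528415 on the plus strand, rpl-5 at chrII:8569600-8569700 on the plus strand and rps-9 at chrII:11126589-11126689 on the minus strand.
rpl-18: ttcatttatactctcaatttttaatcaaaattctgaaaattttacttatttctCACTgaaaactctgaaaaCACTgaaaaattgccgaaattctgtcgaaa
rpl-37: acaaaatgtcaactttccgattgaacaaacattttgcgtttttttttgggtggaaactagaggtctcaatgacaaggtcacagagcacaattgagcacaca
rpl-5: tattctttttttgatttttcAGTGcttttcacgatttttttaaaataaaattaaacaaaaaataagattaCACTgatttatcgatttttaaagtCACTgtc
rps-9: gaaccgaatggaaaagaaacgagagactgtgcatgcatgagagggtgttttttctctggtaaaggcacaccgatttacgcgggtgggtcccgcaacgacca

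The share of ribosomal protein genes with a region was set against that of all protein-coding genes at each rank. The ratio of the shares was highest for the strongest regions, while their difference in percentage points was largest over the whole list. Down to rank 150 the share of members was 16.2 times that of all genes, and 10.5 times with a window of 2 kb, where 0.816% of all genes had an IDR peak. Down to rank 500 there were 13 members (15.9%), against 323 of all genes (1.62%), a ratio of 9.80. Down to rank 1000 the ratio was 7.13. Within the first 5000 regions there were 32 members (39.0%), against 2414 of all genes (12.1%), a ratio of 3.23. In the whole list of 30000, 66 members (80.5%) had a region, against 10544 of all genes (52.8%), a ratio of 1.52. Among the genes with a region, the median rank of the best region was 5349 for members and 12272.5 for all genes.

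**Figure D1:**
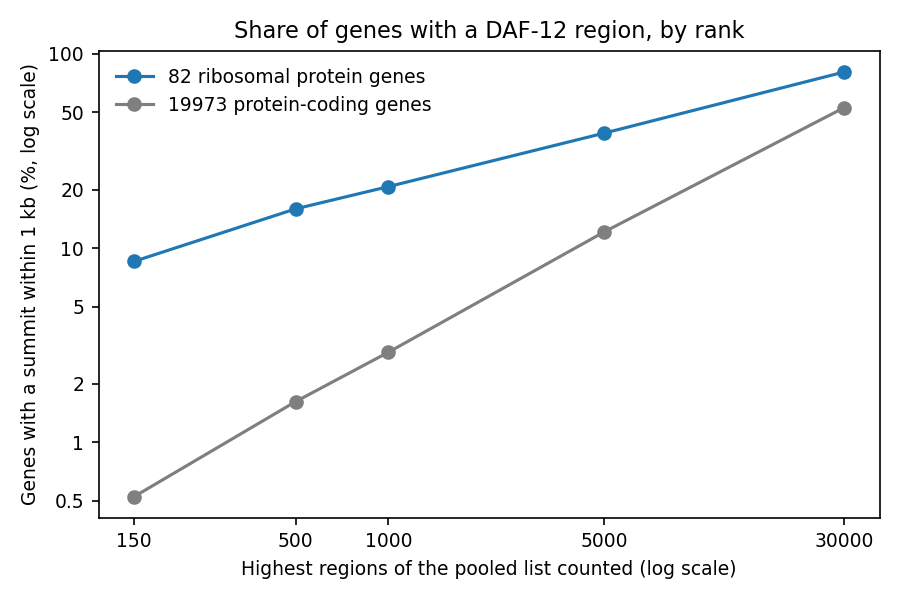
Share of genes, in percent, with a pooled region within 1 kb of a start as the list is read down from rank 1 (both axes log), for the 82 ribosomal protein genes and for all 19973 protein-coding genes. The members' share is 8.54% at rank 150 and 80.5% at rank 30000, against 0.526% and 52.8% of all genes.

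Each replicate list on its own gave similar counts. Replicate 1 placed 5 members (6.1%) within its first 150 regions and 18 (22%) within its first 1000, against 0.476% and 2.73% of all protein-coding genes. Replicate 2 placed 8 members (9.76%) within its first 150 and 16 (19.5%) within its first 1000, against 0.516% and 2.73% of all genes. A region of rank 1 to 1000 in both replicates was found at 10 members (12.2%), against 136 of all protein-coding genes (0.681%). These 10 were rpl-1, rpl-3, rpl-12, rpl-15, rpl-20, rpl-35, rps-1, rps-12, rps-20 and rps-26. At rpl-1 the replicates named different regions, with summits 703 bp apart, and the pooled list put its best region at rank 3249. A further 8 members reached the first 1000 in replicate 1 only and 6 in replicate 2 only, so 41.7% of the members found in either were found in both, against 14.2% of all genes. Each replicate alone therefore names several members that the other does not. The 8 of replicate 1 include rpl-41.1 and rpl-41.2, which are both counted for 1 shared region at rank 822. The gene rps-0 was at rank 299 in replicate 1, with signal 16.1, and had no region within 1 kb in replicate 2. The gene rpl-34 was at rank 624 in replicate 2, with signal 15.5, and had none in replicate 1.

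The strongest region at a ribosomal protein gene belonged to rpl-3, which encodes a protein of the large subunit near the site of peptide bond formation. Its summit at chrIII:3867568 lay 286 bp upstream of the start, at pooled rank 4 with a pooled signal of 129. The replicate signals were 69.3 (rank 5) and 61.2 (rank 3), and the replicate summits were 29 bp apart. Both replicates thus placed rpl-3 among their 5 strongest regions.

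The gene rpl-35, whose protein sits close to the exit of the peptide tunnel, had its summit 415 bp upstream at chrIII:7854719, with pooled rank 13 and pooled signal 97.4. Replicate signals were 50.7 and 45.1. The gene rpl-20, which RefSeq calls rpl-18A, had its summit 326 bp upstream at chrIV:4750104, with pooled rank 19 and pooled signal 86.2. Its replicate signals were 46.4 and 38.9, with summits 4 bp apart. At rpl-15, a further large-subunit gene, the summit lay 352 bp upstream at chrIV:654928, with pooled rank 29 and pooled signal 70.5. Here replicate 2 was the higher, with replicate signals of 31.6 and 38.9. At these 4 large-subunit genes the replicate signals were closest to each other at rpl-35, with a log2 ratio of 0.17, and furthest apart at rpl-15, with -0.30.

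Of the small-subunit genes, rps-12 had its summit 153 bp upstream at chrIII:5679145, with pooled rank 35, pooled signal 62.5 and replicate signals of 34.0 and 28.0. The gene rps-1, which RefSeq calls rps-3A, had its summit 236 bp upstream at chrIII:4475682, with pooled rank 90 and pooled signal 39.9. Its replicates were further apart, with signals of 15.0 (rank 413) and 26.2 (rank 58) and summits separated by 146 bp. The summit of rpl-12, whose protein lies at the base of the stalk where translation factors dock, was only 22 bp upstream of the start at chrIV:13240673. It had pooled rank 92 and pooled signal 39.6, with replicate signals of 16.2 (rank 276) and 22.4 (rank 100). Thus rps-1 and rpl-12 passed the IDR limit on the pooled signal while replicate 1 alone ranked them below 150.

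**Figure D2:**
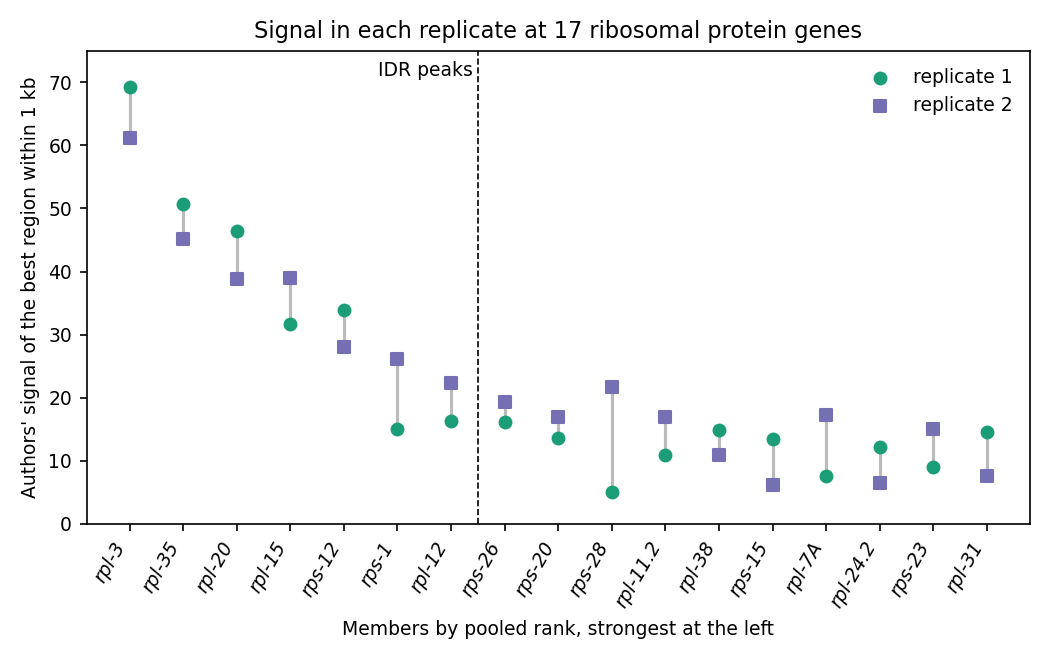
Authors' signal (no stated unit) of the best region within 1 kb in replicate 1 and replicate 2 for the 17 ribosomal protein genes with a pooled region of rank 1 to 1000, in order of pooled rank. The first 5 genes lie between 28.0 and 69.3 in both replicates, and the points of rps-28, rps-15 and rpl-7A lie more than 2-fold apart.

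The other 10 members of the first 1000 ranks fell between pooled rank 152 (rps-26) and 910 (rpl-31), with pooled signals from 33.5 down to 21.9. The gene rps-26, whose protein lines the exit of the messenger RNA, lay just outside the IDR limit, with its summit 399 bp upstream and replicate signals of 16.1 and 19.4. The gene rps-20 at rank 238 had replicate signals of 13.6 and 17. The gene rpl-11.2 at rank 268, whose protein binds the 5S ribosomal RNA, had replicate signals of 10.9 and 17. The small-subunit gene rps-23 at rank 857, whose protein lies at the decoding centre, had a replicate 2 signal of 15.1 near the pooled summit. In replicate 1 its best region was another one, 748 bp downstream of the start, with signal 9.05. Of the 10, replicate 2 was the higher at rps-26, rps-20, rps-28, rpl-11.2, rpl-7A and rps-23. Replicate 1 was the higher at rpl-38, rps-15, rpl-24.2 and rpl-31.

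In 3 of the 17 the replicate signals differed by more than 2-fold. At rps-28 they were 5.0 (rank 27823) and 21.7 (rank 110), a log2 ratio of replicate 1 over replicate 2 of -2.12. At rps-15 they were 13.5 and 6.12, with a log2 ratio of 1.14, and at rpl-7A 7.55 and 17.3, with a log2 ratio of -1.20. Over the 17 members the median log2 ratio was -0.26 with an SD of 0.83. It was -0.09 with an SD of 0.74 over 546 genes. These are the genes, of 581 of the same ranks, that had a region in both replicates. Of the 17 members 17.6% differed by more than 2-fold, against 18.9% of those 546 genes. The 3 genes named here rest mainly on 1 replicate, and such differences were about as frequent among the ribosomal protein genes as among those 546 genes. Genes with no region in a replicate are left out of that share.

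The remaining members of the first 1000 ranks were rpl-38, rpl-24.2 and rpl-31. The summit of rpl-38, at rank 380, lay 309 bp downstream of its start, within an intron of the gene itself, with replicate signals of 14.8 and 10.9. It was the only summit of the 17 on the downstream side. The gene rpl-24.2, at rank 775, had replicate signals of 12.2 (rank 1278) and 6.43 (rank 24614). RefSeq calls it rsl-24D1 and describes a putative ribosome biogenesis protein, so it is a member by its name rather than by that description. The gene rpl-31, at rank 910, had replicate signals of 14.6 (rank 496) and 7.53 (rank 16743). Below these, the members beyond rank 1000 and within rank 5000 ran from rpl-33 at rank 1129, with pooled signal 21.1, to rpl-42 at rank 4865, with pooled signal 16. The weakest pooled region was that of rpl-26 at rank 28324, with pooled signal 9.35, in a list whose lowest value is 9.10.

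**Figure D3:**
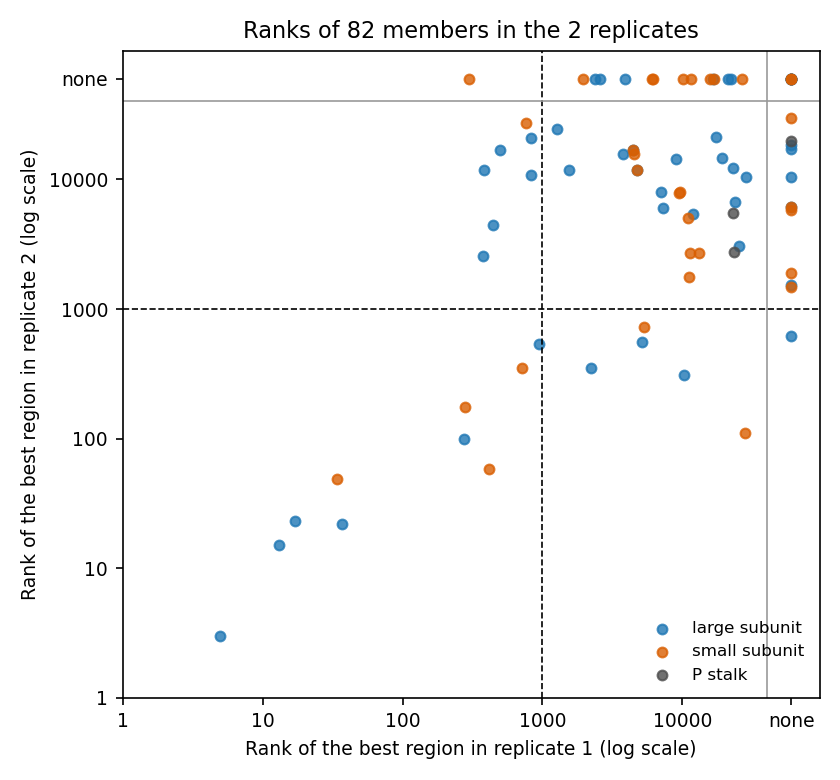
Rank of the best region in replicate 1 and replicate 2 (log axes) for the 82 ribosomal protein genes, coloured by subunit, with genes lacking a region in a replicate drawn on the margin marked none and dashed lines at rank 1000. The IDR genes gather at the low ranks of both axes, while rps-28 lies at rank 27823 in replicate 1 and rank 110 in replicate 2.

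The position of the summits relative to the start was also described. Summits lay upstream at 16 of the 17 members of the first 1000 ranks (94.1%), against 434 of 581 genes (74.7%). The median distance was 286 bp (range 22 to 442) at members and 354 bp at all genes of those ranks. Summits 100 to 500 bp upstream were found at 14 of the 17 members (82.4%), against 42.3% of the genes. For IDR peaks alone the upstream share was 7 of 7 for members and 97 of 105 (92.4%) for all genes. Over the whole list the upstream share was 49 of 66 members (74.2%), against 55.2% of genes, and 56.1% of those members, against 25% of the genes, had the summit 100 to 500 bp upstream.

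**Figure D4:**
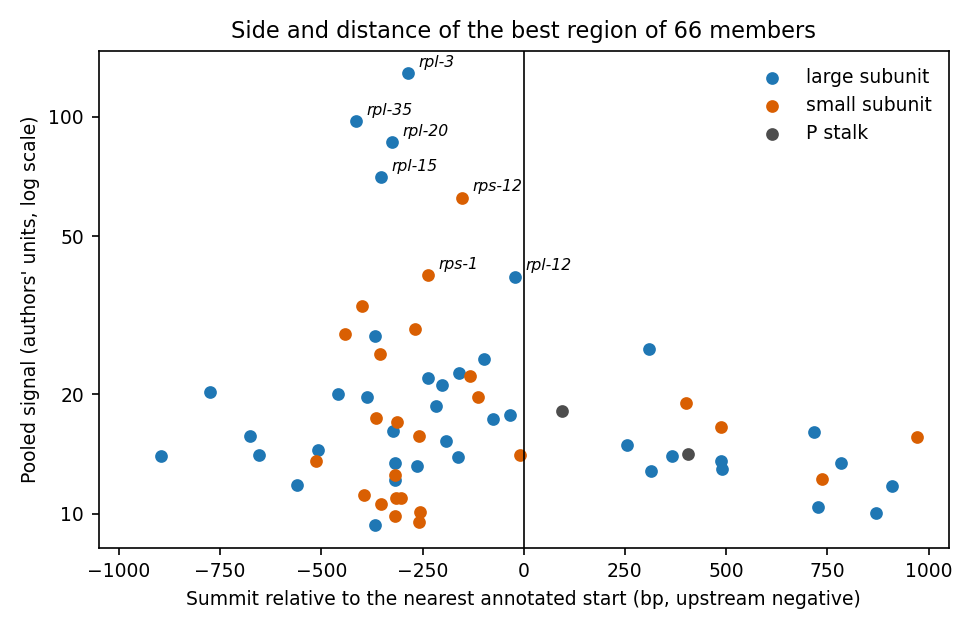
Signed distance from the start to the pooled summit in bp (negative is upstream) against the authors' pooled signal (log axis, no stated unit) for the 66 ribosomal protein genes with a region, coloured by subunit. The 7 IDR peaks lie 22 to 415 bp upstream, and the only downstream summit of the first 1000 ranks is that of rpl-38 at 309 bp.

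The shares of both subunits were close, and no stalk gene reached the first 1000 ranks. Of the large-subunit genes 5 had an IDR peak and 10 of 47 (21.3%) a region of rank 1 to 1000. Of the small-subunit genes 2 had an IDR peak and 7 of 32 (21.9%) a region of rank 1 to 1000. The stalk protein genes rla-2 and rla-1 had best regions at rank 2584 and rank 8450, and rla-0, which encodes the protein that anchors the other stalk proteins, had none in the pooled list. In replicate 2 rla-0 had a region at rank 19745. The gene ubl-1, which encodes a ubiquitin-like domain fused to a small-subunit protein, had rank 18615.

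Some members share a name with another member apart from a number or letter, and they differed in some of these pairs and not in others. The gene rpl-11.2 was at rank 268, while rpl-11.1, the other copy of that gene, had no pooled region and only rank 18602 in replicate 2. At rpl-25.1 and rpl-25.2 the ranks were 6818 and 6064, with pooled signals of 14.9 and 15.3. The genes rpl-36 and rpl-36.A were at ranks 8563 and 12092. The gene rpl-24.2, a putative biogenesis gene by the RefSeq description, was at rank 775, and rpl-24.1, which RefSeq calls rpl-24, at rank 16027. The names rpl-7A and rpl-7 differ by a letter only but denote different proteins, and their ranks were 502 and 8802. Members that are neighbours can share 1 summit, as rpl-39 and rps-30 did at rank 1675, rpl-36 and rps-14 at rank 8563 and rpl-41.1 and rpl-41.2 at rank 10194. None of these shared summits was in the first 1000 ranks of the pooled list. In replicate 1 the summit shared by rpl-41.1 and rpl-41.2 was at rank 822.

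The members were also counted by chromosome. Within the first 1000 ranks there were 5 of 25 members on chromosome I, 0 of 10 on II, 4 of 19 on III, 6 of 18 on IV, 1 of 8 on V and 1 of 2 on X. Among all protein-coding genes the share with such a region ran from 2.28% on V to 3.70% on X. The members with an IDR peak were 4 on III and 3 on IV, and of the 105 genes with an IDR peak 31 lay on III, 17 on IV and 14 or 15 on each of the others. With so few genes per chromosome no order is read from these counts.

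At the other end, 16 of the 82 members had no region in the pooled list, against 9429 of all 19973 protein-coding genes. The genes rpl-4, rpl-5, rpl-17, rpl-18, rpl-37, rps-6 and rps-9 had none in any of the 3 lists. The genes rpl-11.1, rpl-21, rpl-29, rps-3, rps-8, rps-10, rps-18, rps-25 and rla-0 had a region in a replicate list only. These include core proteins such as that of rpl-5, which binds the 5S ribosomal RNA together with the product of the rpl-11 genes, and that of rps-6, whose mammalian counterpart is phosphorylated when growth signals are active. A best region in all 3 lists was found for 47 members, in 2 lists for 20 and in 1 list for 8. Such counts by number of lists were not made for all genes. The median pooled signal was 12 and the lowest 9.10, so low-ranked regions stood little above the floor of the list. Members with summits of both replicates within 100 bp of each other had a Spearman correlation of replicate signals of 0.582 over 22 genes. It was 0.319 over 1217 of all genes. Both values describe libraries that share the genome's composition. The 22 include rpl-3, rpl-35, rpl-20, rpl-15 and rps-12, with signals above the rest, and count the summit shared by rpl-39 and rps-30 for both. The 2 sets were not matched for signal, so the members are not read as more repeatable.

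Genes that lie close to a ribosomal protein gene share its summit, and the assay does not tell which start a region serves. Of the 17 summits, the ribosomal protein gene was the nearest protein-coding start in 12, and in 5 there was no other protein-coding start within 1 kb, which includes rpl-3 and rpl-35. A divergently transcribed protein-coding gene lay within 1 kb in 11 cases. How often other genes of these ranks have such a neighbour was not counted. At rpl-20 the start of Y17G9B.5 was nearer, at 136 bp, and at rps-12 that of ska-3, a gene named for a spindle and kinetochore protein, was nearer, at 140 bp. At rpl-15 the start of K11H12.8 lay 462 bp from the summit. At rps-1 that of ifet-1, which encodes a translational repressor that binds eIF4E, lay 532 bp away, and at rpl-12 that of lin-54, a DNA-binding subunit of the DREAM complex, lay 371 bp away. Counting each summit for its nearest gene only, 5 members in place of 7 had an IDR peak, against 0.391% of all genes. In both replicates 5 members in place of 10 had a region of rank 1 to 1000, a count not made over all genes that way. In the pooled list down to rank 1000, that way of counting left 12 members (14.6%), against 473 of all genes (2.37%).

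Below the IDR limit the neighbours were tmem-107 at 58 bp from the summit of rps-26, ekl-4 at 129 bp from that of rps-20 and sac-2 at 69 bp from that of rpl-31. Further neighbours were Y41D4B.4 at 861 bp from the summit of rps-28, F36A2.9 at 427 bp from that of rps-15, set-21 at 157 bp from that of rpl-7A and dpm-3 at 402 bp from that of rps-23. A start of a small nucleolar RNA gene lay within 1 kb of the summit in 5 of the 17 cases, and none had a tRNA gene there. The summit was outside annotated genes in 14 of the 17. The exceptions were rps-1, within the non-coding RNA gene F56F3.10, rpl-24.2, within C03D6.1, and rpl-38. These layouts were not counted at other gene summits of these ranks, so they are not read as traits of the members.

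The ribosomal protein genes were next set beside other genes of translation and of constitutive cell machinery. None of the 70 mitochondrial ribosomal protein genes had an IDR peak and 1 (1.43%) had a region of rank 1 to 1000. Of 38 translation factor genes 2 had an IDR peak (5.26%) and 5 a region of rank 1 to 1000 (13.2%). Those with an IDR peak were eif-3.C, an initiation factor subunit, at rank 74 and signal 44.1 (replicates 20.2 and 21.5), and eif-2Bgamma, a subunit of the exchange factor for eIF2, at rank 142 and signal 34.0 (replicates 15.1 and 15.1). No aminoacyl-tRNA synthetase gene of 31 had a region of rank 1 to 1000. For ribosome biogenesis and RNA polymerase I the count was 2 of 24 (8.33%) and for the proteasome 1 of 33 (3.03%), with no IDR peak in either list. Of 38 genes of the respiratory chain and ATP synthase 4 had a region of rank 1 to 1000 (10.5%), with an IDR peak at cox-5A, a cytochrome oxidase subunit, at rank 31 and signal 69.2 (replicates 30.3 and 35.2). The share of cytosolic ribosomal protein genes, 20.7%, was the highest of these 7 lists, whose differences were not tested.

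**Figure D5:**
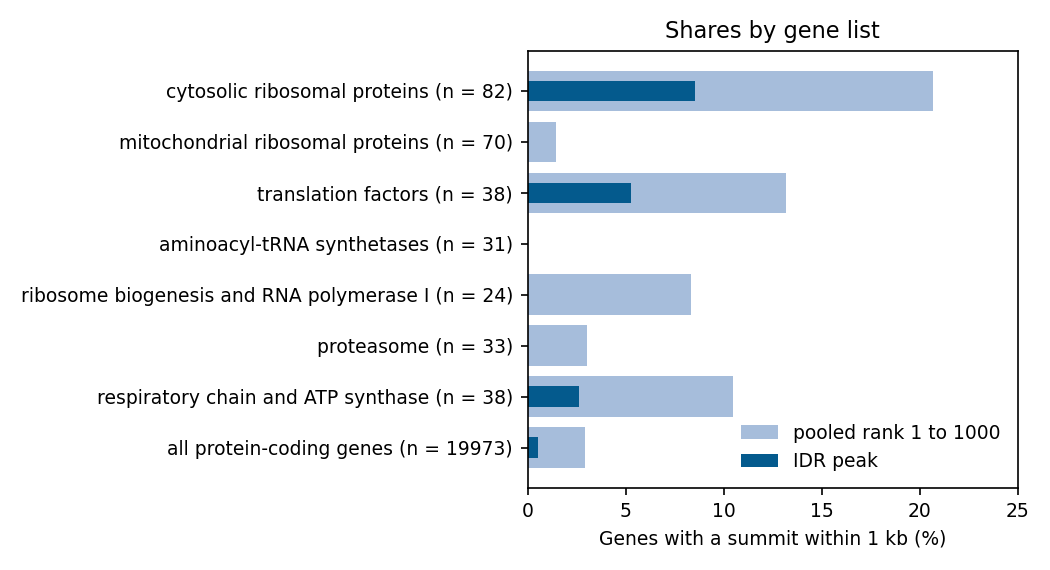
Percent of genes with a pooled region of rank 1 to 150 and of rank 1 to 1000 within 1 kb of a start, for the cytosolic ribosomal protein genes, for 6 other gene lists and for all protein-coding genes. The bars of the cytosolic ribosomal protein genes stand at 8.54% and 20.7%, and the bars of all protein-coding genes at 0.526% and 2.91%.

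The 17 summit windows of 101 bases were searched on both strands for 8 short motifs. The same search was made in 456 windows at other gene summits of rank 1 to 1000, and a match is a description of letters, not a site. Of the receptor hexamers, AGTGTG was in 3 member windows (17.6%), against 5.48% of the other windows. The hexamer AGTGCG was in 2 (11.8%), against 7.02%, and both AGTGCA and AGTACA were in none, against 7.24% and 3.51%. Any of these 4 hexamers was in 5 of the 17 (29.4%), against 21.3%. The core AGTG, which begins 3 of these 4 hexamers, was in 9 of 17 (52.9%), against 57.0%. It was in 6 of the 7 IDR windows printed above, with IDR windows of other genes not counted apart. In 17 windows a difference of this size rests on 1 or 2 genes.

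The other motifs were at or below the share of the other windows. The GAGA-type word GAGAG was in 3 of 17 (17.6%), against 29.8%, the GATA-type word TTATCA was in 1, against 9.43%, the E-box CACGTG was in none, against 2.85%, and the TATA word TATAAA was in none, against 11%. In the stretch from 250 bases before to 50 after the start, AGTGTG was in 9.76% of the 82 members, against 12.1% of all genes, and TATAAA was in 26.8%, against 37.9%. The member windows were richer in G and C, with a median of 47.5%, against 39.6% in the other gene windows. Over the 500 bases upstream the members had 33.9%, against 33.8% in all genes.

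Words of 7 letters were counted after the windows had been seen, so their counts are a description with no test. The word CGAGTGT was in 5 of the 17 windows, those of rpl-3, rpl-20, rpl-15, rpl-11.2 and rpl-24.2, against 0.439% of the 456 other windows. In the 500 bases upstream of the other 65 members it was in 11 (16.9%), against 2.63% of all genes. The word CTACGGT was in 4 windows, those of rpl-3, rpl-15, rps-1 and rpl-11.2, against 0.219%, and in 12 of the other 65 members (18.5%), against 2.57% of all genes. These words were therefore also found upstream of ribosomal protein genes that had only weak regions or none.

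Some other words, picked from the strong summit windows themselves, were rare upstream of the members beyond rank 1000 and also of all genes. At such low shares 65 genes would hold few or none, so no difference between strong and weak members is read from them. The word GAGTGTA was in the windows of rpl-3, rpl-20, rpl-15 and rps-1, all with an IDR peak, against 1.54% of the other windows. It was upstream of 0 of the other 65 members, against 3.44% of all genes. The word CGACGCA was in the windows of rpl-3, rps-1, rpl-12 and rpl-24.2, against 0.877%, and likewise upstream of 0 of the other 65, against 2.00% of all genes. The word GTGGAGC was in the windows of rpl-20, rpl-15, rps-1 and rpl-12, all with an IDR peak, against 1.75% of the other windows, and upstream of 1 of the other 65 members (1.54%), against 4.10% of all genes. Not every word was so rare upstream of the other 65. The word TGGAGCG, which differs from GTGGAGC by a shift of 1 base, was upstream of 5 of them (7.69%), against 3.91% of all genes. There ACGGTAA was in 13.8%, against 4.39%, TACCGTA in 18.5%, against 7.24%, and AAAATTT in 75.4%, against 61.4%. The words AACACGC (3.08%, against 3.77%), AAGTGTA (1.54%, against 7.94%) and AGTGTAT (0%, against 5.45%) were below all genes. Some of these words share letters, CGAGTGT and GAGTGTA differing by a shift of 1 base, and whether any of them bears on binding was not tested.

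Of the 10 members between the IDR limit and rank 1000, the summit windows of 4 are shown in the same way, to set weaker regions beside the strong ones. They are chrIV:1659199-1659299 on the plus strand for rps-28, where the replicates differed most, chrX:2242935-2243035 on the minus strand for rpl-11.2, chrIV:4390637-4390737 on the minus strand for rpl-7A and chrIV:12391135-12391235 on the minus strand for rps-23. The capitals mark AGTG or CACT, of which the rpl-11.2 window holds 1 and the other windows shown hold none. Of the windows not shown, that of rpl-24.2 holds 2 and that of rps-26 holds 1, so 3 of the 10 hold the core. It was in 6 of the 7 windows with an IDR peak and in 57.0% of the 456 other gene windows. IDR windows of other genes were not counted apart. The contrast windows of rpl-18 and rpl-5, which have no region, also hold the core.
rps-28: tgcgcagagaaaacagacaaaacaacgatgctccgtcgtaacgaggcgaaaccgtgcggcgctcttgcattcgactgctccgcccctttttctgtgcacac
rpl-11.2: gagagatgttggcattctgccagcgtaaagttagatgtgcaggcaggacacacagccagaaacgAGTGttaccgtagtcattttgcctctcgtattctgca
rpl-7A: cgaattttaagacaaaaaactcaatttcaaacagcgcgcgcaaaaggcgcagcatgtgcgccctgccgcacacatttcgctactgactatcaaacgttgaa
rps-23: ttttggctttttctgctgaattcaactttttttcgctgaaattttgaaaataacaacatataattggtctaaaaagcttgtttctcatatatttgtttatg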

How the data were processed

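ChIP-seq of eGFP-DAF-12 was measured in 2 biological replicates of whole L3 larvae, as the labels call them. Each region list was derived by the authors from alignments and a control alignment, for either replicate and for the pool, per the deposited notes. The aligner, the peak caller, versions and the IDR threshold are not given in the sources used here. Deposited signal values, 1 per region on an unstated scale, were used to rank and describe regions within a list and, between replicates, as log2 ratios. The −log10 q-value column, the ce10 lists, the control alignments and the signal tracks were not used here.

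Summits were matched to the transcript starts of protein-coding genes (Ensembl release 115, WBcel235, the assembly that ce11 names), within 1 kb. Ties and shared summits were counted for every gene concerned. All 82 members have a RefSeq entry, and for 21 the RefSeq symbol differs. RefSeq names 2 further genes as ribosomal proteins. Motifs were searched within 50 bp of the summit, 7-letter words were kept if in 4 or more of the 17 windows, which left 12, and upstream stretches were 500 bp. Other gene lists were chosen by name patterns, and 2 of 33 names fixed one by one were not matched.

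Genes named are all members of rank 1 to 1000 in the pooled list, members whose names match theirs apart from a number or letter, rla-0, rla-1, rla-2, ubl-1, members with no pooled region, members of other lists with an IDR peak, and protein-coding neighbours within 1 kb of those summits. Members of a replicate's first 1000 ranks only, members at the ends of a rank range, members sharing a summit or a name stem, genes holding a word, and non-coding or host genes at a summit were named after their values were seen. The members and lists were chosen with earlier results of these data known. With 1 group no test was made, and counts are set beside those of all protein-coding genes. Alternatives were windows of 500 bp and 2 kb, the most upstream start, the nearest gene only, each replicate alone, other rank limits, a motif window of 100 bp and summits matched within 100 bp. Names of either annotation, and replicate summits within 100 bp of each other, were added after the data were seen. Scripts ran in Python 3.11.15 with numpy 2.4.6, scipy 1.17.1 and matplotlib 3.10.9 and were tested on simulated data.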

Additional observations from a re-analysis of the deposited data

How the results depend on the processing

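Of 58 alternatives over 16 results, 43 changed the value little and 15 moved it. Little meant a count within 1.5 times, or a median rank or distance within the SD of the values from each replicate alone. For the median log2 ratio it meant less than the SD over the 17 members, 0.83, which is a wide limit. Members with an IDR peak stayed at 7 except with each summit given to its nearest gene (5). The first 150 ranks of a replicate alone, which are not IDR peaks, gave 5 members in replicate 1 and 8 in replicate 2. The share of all genes moved with the window, so that the ratio of shares, 16.2, was 23.0 at 500 bp (0.371% of all genes), 10.5 at 2 kb (0.816%) and 15.6 with the nearest gene only (0.391%). Members of rank 1 to 1000 numbered 16 to 18 without either replicate. Down to rank 5000 the count was 32 in place of 17, with 27 upstream in place of 16. With the nearest gene only, 5 members in place of 10 were in the first 1000 of both replicates. With summits within 100 bp of each other, an alternative added after seeing the data, there were 8. Neither count was made over all genes. The median rank of 5349 became 3556 with a window of 500 bp and also with the nearest gene only, and was 5107 to 5907.5 without a replicate. The median distance of 286 bp became 309 bp with a window of 2 kb, 297.5 bp with the nearest gene only, 311 to 322.5 bp without a replicate, 326 bp down to rank 500 and 311 bp down to rank 5000. Member windows with any of the 8 motifs numbered 13 in place of 7 when the window reached 100 bp to either side, since a longer window holds more words. For the nearest gene only, fewer genes can own a summit by construction, and for the other changes the cause was not tested. No paired analysis was possible because the series holds 1 group. Depth is unknown, so how far it limits the weak regions cannot be given.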

Other observations

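Longer shared words upstream of the ribosomal protein genes were looked for after the data had been seen, in the 500 bases before each start and on both strands, and their counts are a description with no test. Words of 11 letters were kept only if they were upstream of at least 6 members. Members also had to make up a large part of all genes with the word, so a high member share follows from that choice. The word AGTATTCAACG was upstream of 9 of the 82 members (11%), against 17 of all 19973 protein-coding genes (0.0851%), so that 52.9% of the genes with it were members. They were rpl-7A, rpl-13, rpl-32, rpl-39, rps-0, rps-3, rps-20, rps-22 and rps-30. None of these had an IDR peak, 2 had a region of rank 1 to 1000, 6 had a lower one and 1 had none in the pooled list. The word CGAGTGTTACC, which holds the 7-letter word CGAGTGT, was upstream of 8 members (9.76%), against 22 of all genes (0.110%). They were rpl-1, rpl-11.2, rpl-21, rpl-24.1, rpl-34, rps-10, rps-13 and rps-23, with no IDR peak, 2 regions of rank 1 to 1000, 4 lower ones and 2 genes with none. The word CGCTACGCAGC was upstream of 6 members (7.32%), against 13 of all genes (0.0651%), and 1 of the 6, rpl-12, had an IDR peak. The divergent pairs rpl-39 and rps-30, rpl-24.1 and rps-10, and rpl-36 and rps-14 count 1 stretch of sequence for both genes. Any of the 3 words was found in 5 of the 17 members of rank 1 to 1000 (29.4%), against 16 of the other 65 (24.6%).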
